A study of Mus musculus with 8 samples.

Results

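The macrophage and lysosomal genes described here are a set of 38 genes, chosen by name, that encode complement C1q, myeloid receptors and adaptors, lysosomal enzymes and lipid-handling proteins typical of macrophages. Of the 38 genes, 37 were measured by a probe set naming 1 gene, out of 18193 genes measured in all, and no value is given for Spp1 (osteopontin). They were measured in T cells, sorted as CD3+CD8+CD44+CD62L- (antigen-experienced CD8+ T cells), on Affymetrix Mouse 430 2.0 arrays. The study compared these cells from MC38 tumors (a mouse colon adenocarcinoma line grown under the skin of the flank) and from lymph nodes (LN) of the same hosts, to ask how the tumor environment changes T cells and their response to ionizing radiation (IR).

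The 4 groups were tumor T cells after IR, tumor T cells without IR, LN T cells after IR and LN T cells without IR, with 2 arrays each. All hosts were female C57BL/6 mice of 6-8 weeks that carried MC38 tumors, the LN donors included. IR was a single whole-body dose of 5 Gy given 5 h before the organs were taken, and the other mice received none. Each array held RNA of cells pooled from 4 mice, so the spread between mice is not seen. Tumors were digested with enzymes, spun through Percoll and enriched for CD8+ T cells with a positive selection kit before sorting. Inguinal and axillary LN, whether or not they drained the tumor, were pooled and pressed through a mesh. Tissue and way of preparation therefore cannot be told apart.

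Macrophages are phagocytes that take up dying cells, microbes and lipoproteins and break them down in lysosomes, acidic compartments filled with proteases such as the cathepsins and with lipid-cleaving enzymes. Tissue macrophages depend on the receptor CSF1R and on the transcription factor PU.1, make much of the body's C1q, and are abundant in many solid tumors. Lysosomal genes are not particular to them: all cells have lysosomes, and T cells also express cathepsins and prosaposin.

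Values are log2 intensities, in which 1 unit is a factor of 2. A gene "rose" or "fell" where limma gave a Benjamini-Hochberg adjusted p under 0.1 over all 35877 tested probe sets together with a log2 fold change of at least 1. T cell genes were read as a check of the sort. Of 14 measured T cell identity genes 0 passed between tumor and LN T cells either with or without IR. Of them, 4 had an unadjusted p under 0.05 without IR and 5 with IR. With IR the lowest limma adjusted p was 0.0662 and the largest log2 difference 0.98, just under the fold limit. Cd8a lay between 12.09 and 12.67 on all 8 arrays. Such levels do not show which other cells were present. Phlda3, a p53 target, was 10.32 and 10.22 on the tumor arrays with IR, against 8.18 and 7.78 on those without, and 10.91 and 10.97 on the LN arrays with IR, against 6.95 and 6.68 on those without. It was higher on every irradiated array of its tissue. The medians of the arrays lay between 6.87 and 6.96, and their lower quartiles between 5.38 and 5.59. In LN T cells without IR, C1qb, Ms4a7, Adgre1, Mrc1 and Lpl averaged below 5.59, so their LN values are near the floor. Probe sets differ in brightness, so a level is set only against the same gene on other arrays.

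Most of the macrophage genes were far higher in tumor T cells than in LN T cells, and the lysosomal enzymes less so. Without IR, 24 of the 37 measured members rose in tumor T cells, 0 fell and 13 did not pass, where 4.5% of all genes rose and 1.04% fell. With IR, 22 rose, 2 fell (Ms4a6c and Ms4a4c) and 13 did not pass, where 4.8% of all genes rose and 2% fell. The median log2 difference of the members was 2.61 without IR and 2.07 with IR, beside -0.09 and 0.06 over all genes. On the level of single arrays, 27 of 37 members were higher on each of the 4 tumor arrays than on any of the 4 LN arrays, which 10.9% of all genes were. The 10 exceptions were Ms4a6c, Ms4a4c, Tyrobp, Spi1, Cybb, Ctss, Ctsz, Psap, Cst3 and Pltp. The comparisons with and without IR use different arrays. In both, "rose" and "fell" mean tumor over LN T cells, not an effect of IR. The members were chosen with earlier results of these data known, so their excess over all genes is no independent support. Counts use 1 probe set per gene. Of 18 members with several, probe sets differed in call for 7 without IR (Ms4a7, Ms4a6c, Ms4a6d, Trem2, Ctsb, Ctsl and Lpl) and for 10 with IR (Ms4a7, Ms4a6c, Ms4a6d, Csf1r, Fcgr1, Cybb, Dab2, Ctsb, Ctsl and Pltp).

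These counts rested in part on 1 array of each tumor group. Without replicate 2 of the tumor T cells without IR, 13 members passed in the comparison without IR. The 11 lost were Ms4a6d, Csf1r, Cd68, Cd14, Trem2, Spi1, Aif1, Ctsl, Lgmn, Grn and Lpl, all still with values above 0 (0.86 to 4.11) and with limma adjusted p between 0.111 and 0.321. Without replicate 2 of the irradiated tumor T cells, 11 members passed in the comparison with IR, and the 13 lost (Ms4a6c, Ms4a6d, Ms4a4c, Csf1r, Cd68, Fcgr1, Fcgr3, Ctsl, Lgmn, Grn, Pltp, Lgals3 and Pf4) had adjusted p between 0.113 and 0.293. In a pooled bulk sample, more cells of a type and more RNA per cell cannot be told apart.

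**Figure D1:**
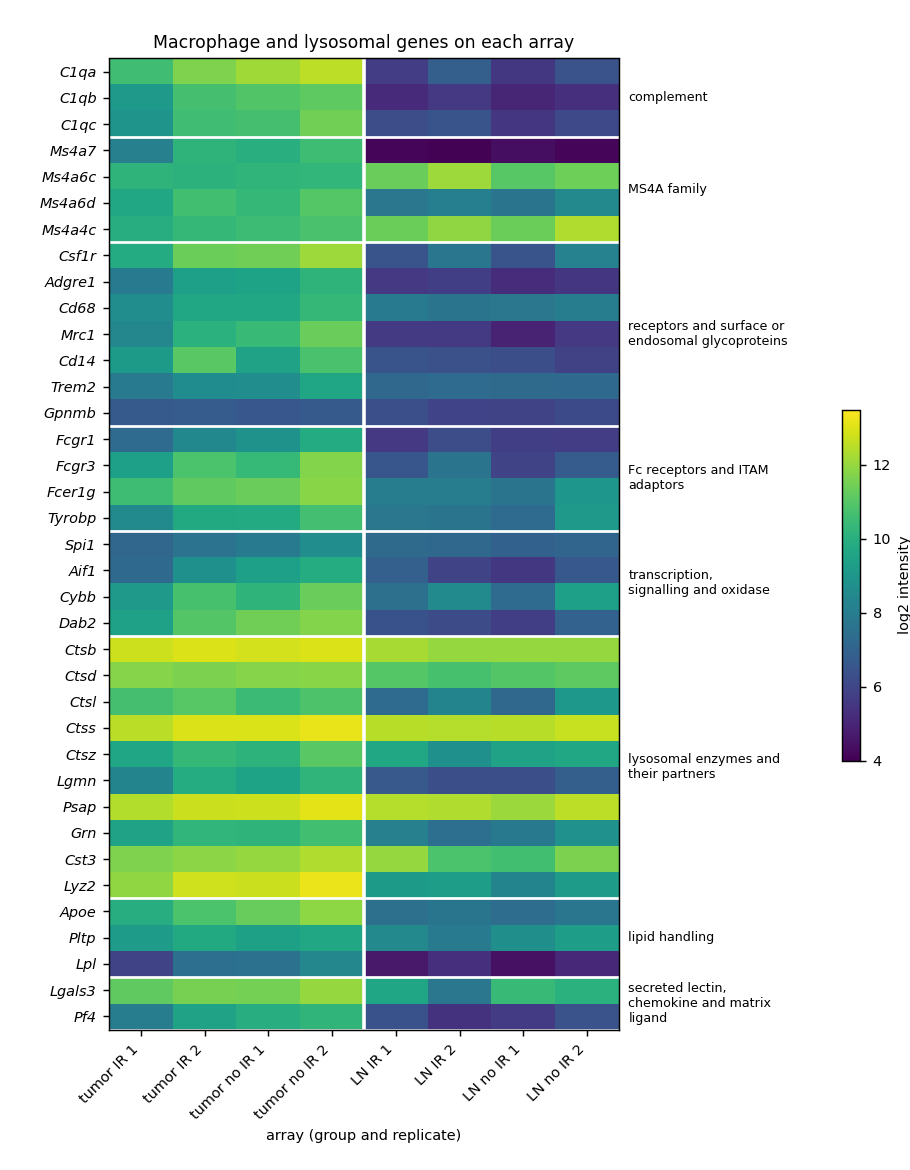
Log2 intensity (colour) of the 37 measured members (rows, by role) on the 8 arrays (columns, tumor left of LN, IR left of no IR). C1qa runs from 10.59 to 12.56 on the tumor arrays and from 5.53 to 6.88 on the LN arrays, and Ctsb from 12.77 to 13.01 and from 11.99 to 12.27.

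Promoter windows show what some of these genes share in sequence. RefSeq (build GRCm38.p6) gave windows of 300 bases, 250 before and 50 after a start site, for 28 of the 37 measured members (35 windows). GAGGAA, read on both strands (TTCCTC on the other), is a core of sites of PU.1, the product of Spi1. It occurred in windows of 19 of the 28 members (67.9%), beside 31.3% of 27025 genes with a window. CACGTG, its own reverse complement, is the E-box core of the element through which TFEB acts on lysosomal genes. It occurred for Ctsd, Ctsl and Lgmn (10.7%), near the share of all genes (8.1%). The windows of Ctss, Ctsz, Cst3, Grn, Psap and Lyz2, also lysosomal members, held none. TGACTCA, the AP-1 site, read on both strands, occurred for Cd68, Gpnmb and Psap (10.7%), beside 5.9% of all genes. A match is a description of the letters, not a bound site. The windows below are of 4 members among the steepest in tumor T cells, and of Ctsd as a lysosomal gene that did not pass. GAGGAA or TTCCTC is in capitals in the first 4, and CACGTG in that of Ctsd.
C1qb promoter, chr4:136886151-136886450, minus strand: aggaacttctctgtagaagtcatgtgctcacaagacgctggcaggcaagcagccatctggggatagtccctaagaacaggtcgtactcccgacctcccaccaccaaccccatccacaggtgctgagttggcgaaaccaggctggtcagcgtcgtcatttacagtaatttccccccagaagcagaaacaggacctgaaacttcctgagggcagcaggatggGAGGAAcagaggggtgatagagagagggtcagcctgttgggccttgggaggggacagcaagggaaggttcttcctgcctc
C1qc promoter, chr4:136892865-136893164, minus strand: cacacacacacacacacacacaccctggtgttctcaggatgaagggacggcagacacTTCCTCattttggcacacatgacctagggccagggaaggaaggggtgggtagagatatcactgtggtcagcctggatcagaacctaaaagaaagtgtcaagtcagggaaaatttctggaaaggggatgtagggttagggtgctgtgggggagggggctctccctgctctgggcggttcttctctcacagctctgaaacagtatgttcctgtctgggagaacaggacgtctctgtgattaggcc
Ms4a7 promoter, chr19:11336097-11336396, minus strand: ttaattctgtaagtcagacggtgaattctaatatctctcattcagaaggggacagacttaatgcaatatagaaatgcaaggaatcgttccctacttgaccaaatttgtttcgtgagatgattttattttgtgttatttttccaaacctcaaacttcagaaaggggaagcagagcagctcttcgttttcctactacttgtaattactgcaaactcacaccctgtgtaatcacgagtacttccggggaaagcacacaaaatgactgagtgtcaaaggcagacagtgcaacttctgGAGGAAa
Mrc1 promoter, chr2:14229164-14229463, plus strand: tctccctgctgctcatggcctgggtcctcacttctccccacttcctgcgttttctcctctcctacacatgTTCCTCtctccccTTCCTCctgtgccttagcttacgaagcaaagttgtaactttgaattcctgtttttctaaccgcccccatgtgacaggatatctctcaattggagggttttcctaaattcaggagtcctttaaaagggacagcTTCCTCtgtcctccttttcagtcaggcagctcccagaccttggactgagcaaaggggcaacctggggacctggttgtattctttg
Ctsd promoter, chr7:142387778-142388077, minus strand: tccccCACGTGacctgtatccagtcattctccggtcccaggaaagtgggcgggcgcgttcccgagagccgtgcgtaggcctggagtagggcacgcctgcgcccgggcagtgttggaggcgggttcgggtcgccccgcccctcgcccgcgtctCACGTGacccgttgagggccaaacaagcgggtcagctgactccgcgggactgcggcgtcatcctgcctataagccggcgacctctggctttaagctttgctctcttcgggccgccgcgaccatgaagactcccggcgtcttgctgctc
C1qb held 1 match, starting 30 bases before the start site, and Mrc1 held 3, all on the other strand. C1qc held 1 on the other strand, and the match of Ms4a7 lay after its start site. Ctsd held 2 E-box cores.

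The complement genes C1qa, C1qb and C1qc encode the 3 chains of C1q, the molecule that opens the classical complement pathway and tags dying cells, and stand next to each other on chromosome 4. C1qa was 10.59 and 11.68 on the tumor arrays with IR and 12.13 and 12.56 on those without, against 5.74 and 6.88 on the LN arrays with IR and 5.53 and 6.43 on those without. The lowest tumor array thus stood 3.71 above the highest LN array. All 3 genes rose, both without IR (5.29 to 6.37) and with IR (3.38 to 4.83). C1qa had the largest difference of any member without IR, 6.37 ± 0.51 (limma SE, n = 2 arrays per group, adjusted p = 0.000895), and 4.83 ± 0.51 with IR (adjusted p = 0.00277). C1qb on the LN arrays averaged 5.37 ± 0.27 with IR and 5.17 ± 0.20 without (SD, n = 2 each).

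The MS4A genes encode membrane proteins that span the membrane 4 times, and the 4 members lie in a cluster on chromosome 19. They split. Ms4a7, found mainly in macrophages, was 8.14 and 10.17 on the tumor arrays with IR and 9.98 and 10.54 on those without, against 4.14 and 4.06 on the LN arrays with IR and 4.35 and 4.17 on those without. The lowest tumor array was far above every LN array. Ms4a7 rose by 6.00 ± 0.57 without IR (limma adjusted p = 0.0019) and by 5.06 ± 0.57 with IR (adjusted p = 0.00368), and Ms4a6d by 2.61 ± 0.41 (adjusted p = 0.0133) and 2.22 ± 0.41 (adjusted p = 0.0222).

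Ms4a4c went the other way, at 9.91 and 10.33 on the tumor arrays with IR and 10.50 and 10.78 on those without, against 11.38 and 11.94 on the LN arrays with IR and 11.37 and 12.37 on those without. Every tumor array lay below every LN array, which held for 6.82% of all genes. It fell by 1.54 with IR (limma SE 0.36, adjusted p = 0.0446), and its log2 fold change was -1.23 without IR (adjusted p = 0.115). Ms4a6c also fell in tumor against LN T cells with IR, by 1.58 (SE 0.27, adjusted p = 0.0171). It had -0.96 without IR (adjusted p = 0.108), but its 2 probe sets disagreed. The brighter one, used here, lay between 10.11 and 10.30 on the tumor arrays and between 11.03 and 12.12 on the LN arrays. The other was 8.99 and 10.45 on the tumor arrays with IR and 10.30 and 11.01 on those without, against 8.37 and 9.34 on the LN arrays with IR and 8.37 and 8.73 on those without, and its log2 fold change without IR was 2.10 (adjusted p = 0.0734), a rise. No direction is therefore given for Ms4a6c as a gene.

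Among receptors and glycoproteins, 6 of 7 members rose without IR and 5 with IR. Mrc1, the mannose receptor of tissue macrophages, was 8.38 and 10.08 on the tumor arrays with IR and 10.45 and 11.35 on those without, against 5.60 and 5.62 on the LN arrays with IR and 4.90 and 5.56 on those without. The difference was 5.67 ± 0.55 without IR (limma adjusted p = 0.00201) and 3.62 ± 0.55 with IR (adjusted p = 0.0115). Adgre1, the surface marker by which mouse macrophages are classically recognised, was 7.89 and 9.36 on the tumor arrays with IR and 9.52 and 10.18 on those without, against 5.59 and 5.76 on the LN arrays with IR and 5.20 and 5.50 on those without. For both genes every tumor array lay above every LN array.

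Csf1r, the receptor for the growth factors CSF1 and IL-34, rose by 4.45 ± 0.73 without IR (limma adjusted p = 0.0156) and 3.51 ± 0.73 with IR (adjusted p = 0.0321), and its LN arrays ranged from 6.46 to 8.20. Cd14, a co-receptor for lipopolysaccharide, was 9.18 and 11.08 on the tumor arrays with IR and 9.47 and 10.78 on those without, against 6.45 and 6.35 on the LN arrays with IR and 6.29 and 5.83 on those without. In both tumor groups replicate 2 was the higher one for Cd14, by over 1 unit. Cd68, a glycoprotein of late endosomes and lysosomes, rose by 2.11 without IR and 1.38 with IR. Trem2, a lipid-sensing receptor, rose by 1.87 ± 0.33 without IR (adjusted p = 0.0218), and was 1.02 ± 0.33 with IR (adjusted p = 0.118). Gpnmb, a glycoprotein of phagocytes under lysosomal stress, was between 6.56 and 6.77 on the tumor arrays and between 5.93 and 6.31 on the LN arrays, with a difference of 0.58 ± 0.17 without IR (adjusted p = 0.133).

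Of the Fc receptor genes and their adaptors, 3 of 4 rose in both comparisons. Fcgr3 encodes an activating receptor for the Fc part of IgG. It was 9.37 and 10.81 on the tumor arrays with IR and 10.36 and 11.74 on those without, against 6.54 and 7.64 on the LN arrays with IR and 5.96 and 6.76 on those without, and rose by 4.69 ± 0.65 without IR (limma adjusted p = 0.00832) and 3.0 ± 0.65 with IR (adjusted p = 0.0372). Fcgr1, the high-affinity IgG receptor, rose by 3.62 and 1.98. Fcer1g, the common signalling chain of these receptors, rose by 3.23 ± 0.43 (adjusted p = 0.00691) and 2.90 ± 0.43 (adjusted p = 0.0103). Tyrobp (DAP12), the adaptor of TREM2 that NK cells also use, was 8.50 and 9.75 on the tumor arrays with IR and 9.81 and 10.67 on those without, against 7.76 and 7.64 on the LN arrays with IR and 7.32 and 9.16 on those without. Replicate 2 of the LN arrays without IR overlapped the tumor range, and Tyrobp did not pass (2.00 ± 0.64 without IR, adjusted p = 0.158).

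Spi1 encodes PU.1 itself and was among the members with the smallest differences. It was 7.15 and 7.61 on the tumor arrays with IR and 7.87 and 8.67 on those without, against 7.29 and 7.20 on the LN arrays with IR and 6.95 and 7.08 on those without. The 2 tumor arrays without IR stood above the rest, and the irradiated ones overlapped the LN arrays. Spi1 rose by 1.25 ± 0.28 without IR (limma adjusted p = 0.0484) and had 0.13 ± 0.28 with IR (adjusted p = 0.83, 95% interval -0.52 to 0.79). Dab2, an endocytic adaptor, rose by 5.22 ± 0.54 without IR (adjusted p = 0.00262) and 3.94 ± 0.54 with IR (adjusted p = 0.00753). Aif1, the actin-bundling protein IBA1, rose by 3.56 ± 0.59 without IR (adjusted p = 0.016), and had 1.57 ± 0.59 with IR (adjusted p = 0.16). Cybb, the catalytic subunit of the phagocyte oxidase, ranged from 9.13 to 11.34 on the tumor arrays and from 7.34 to 9.37 on the LN arrays, and did not pass (2.40 ± 0.81 without IR, adjusted p = 0.18).

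The 10 lysosomal enzymes and partners had a median difference of 1.06 without IR and 0.79 with IR, and 4 of them rose in both comparisons: Lyz2, Lgmn, Ctsl and Grn. Lyz2, the lysozyme of myeloid cells, was 11.92 and 12.82 on the tumor arrays with IR and 12.75 and 13.22 on those without, against 9.16 and 9.34 on the LN arrays with IR and 8.29 and 9.22 on those without. It rose by 4.23 ± 0.39 without IR (limma adjusted p = 0.00156) and 3.13 ± 0.39 with IR (adjusted p = 0.005). Lgmn, the asparagine-specific protease legumain, rose by 3.28 and 2.62, Ctsl, the cysteine protease cathepsin L, by 2.54 and 3.07, and Grn, the precursor of granulins, by 2.08 and 2.07.

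The other 6 did not pass. Ctsb, cathepsin B, was 12.77 and 13.01 on the tumor arrays with IR and 12.84 and 12.99 on those without, against 12.27 and 12.01 on the LN arrays with IR and 12.00 and 11.99 on those without. The groups did not overlap and the adjusted p was 0.0217 without IR, but the difference of 0.92 ± 0.16 (limma SE) missed the fold limit. Other probe sets of Ctsb did pass: of its 5, 3 were called higher without IR (1.03, 1.16 and 1.49, adjusted p = 0.0889, 0.0382 and 0.0189) and 1 with IR (1.15, adjusted p = 0.0397). Ctsd, the aspartic protease cathepsin D, missed the fold limit too (0.71 ± 0.16, adjusted p = 0.0487). Ctss, cathepsin S, which trims the invariant chain of MHC class II, had 0.49 ± 0.21 (adjusted p = 0.291). Psap, the precursor of the saposins, had 0.61 ± 0.22 (adjusted p = 0.211), Ctsz, cathepsin Z, had 1.04 ± 0.41 (adjusted p = 0.253), and Cst3, the cathepsin inhibitor cystatin C, had 1.07 ± 0.44 (adjusted p = 0.274).

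Of the lipid-handling genes, Apoe, the apolipoprotein that macrophages secrete, was 9.93 and 10.80 on the tumor arrays with IR and 11.27 and 11.88 on those without, against 7.51 and 7.70 on the LN arrays with IR and 7.40 and 7.74 on those without. It rose by 4.0 ± 0.32 without IR (limma adjusted p = 0.00092) and 2.76 ± 0.32 with IR (adjusted p = 0.00403). Lpl, lipoprotein lipase, rose by 3.21 ± 0.55 without IR (adjusted p = 0.0179) and had 1.73 ± 0.55 with IR (adjusted p = 0.106). Pltp, the phospholipid transfer protein, rose by 1.29 ± 0.30 with IR (adjusted p = 0.0459) and had 0.54 ± 0.30 without IR (adjusted p = 0.426).

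Lgals3, the galactose-binding lectin galectin 3, was 11.17 and 11.54 on the tumor arrays with IR and 11.50 and 12.00 on those without, against 9.60 and 7.78 on the LN arrays with IR and 10.42 and 10.05 on those without. The tumor arrays were close to each other, and the LN arrays after IR were far apart. Lgals3 rose with IR (2.66 ± 0.53, limma adjusted p = 0.0288) and had 1.51 ± 0.53 without IR (adjusted p = 0.198). Pf4, the chemokine CXCL4 of platelets and some macrophages, rose by 3.99 ± 0.53 without IR (adjusted p = 0.00717) and 2.82 ± 0.53 with IR (adjusted p = 0.0243).

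**Figure D2:**
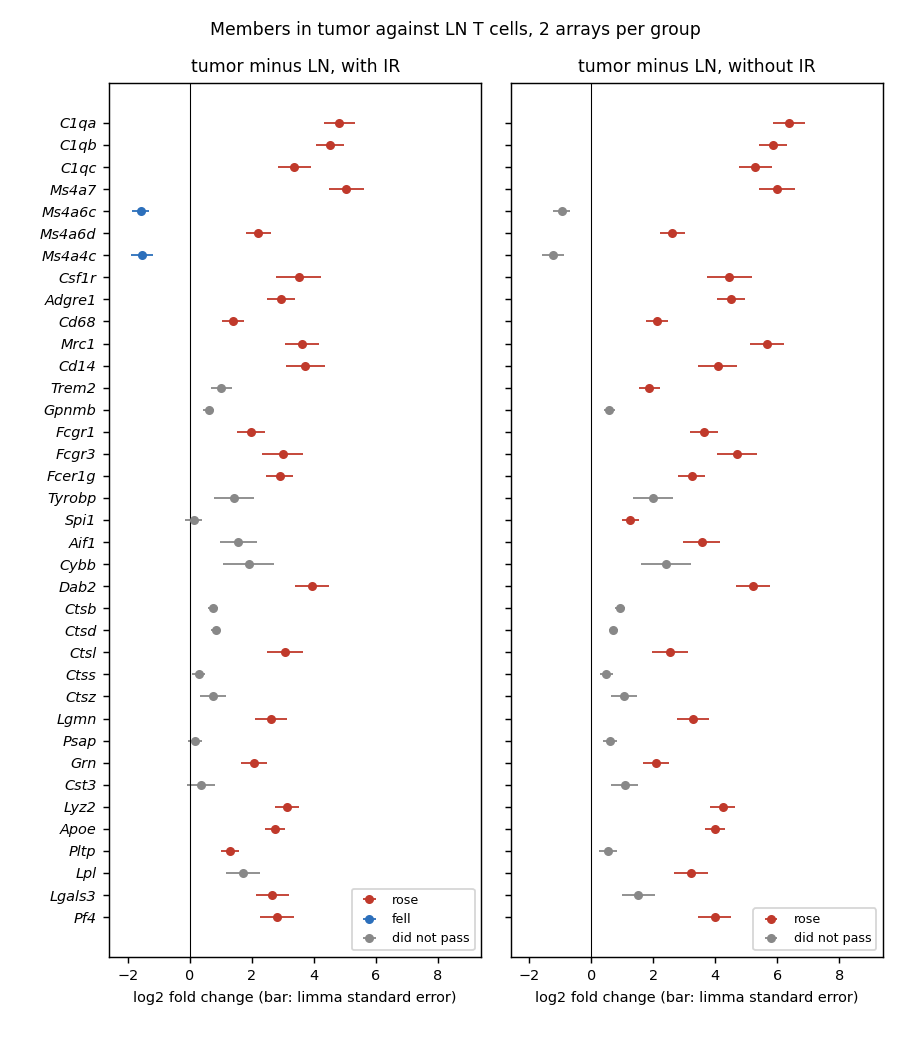
Log2 fold change of tumor over LN T cells for each member with IR (left) and without IR (right). Points are limma estimates from 2 arrays per group, bars their standard errors, and colours the call; C1qa reaches 6.37 without IR, and Ms4a6c and Ms4a4c lie below 0 in both panels.

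The next question was whether IR changed the members within a tissue. In tumor T cells 0 of 37 members passed, where 0.0989% of all genes did, and the lowest limma adjusted p was 0.282 (Apoe). Values below 0 were seen for 34 of the 37 members, beside 40.3% of all genes, with a median of -0.82 beside 0.09 over all genes, and 13 members had an unadjusted p under 0.05 (16.6% of all genes). Mrc1 had the lowest value, -1.67 ± 0.55 (95% interval -2.97 to -0.36, adjusted p = 0.297). Apoe had -1.21 ± 0.32 (interval -1.97 to -0.45). The 3 members with values above 0 were Cd14 (0.00 ± 0.64), Gpnmb (0.11 ± 0.17) and Ctsl (0.20 ± 0.59). The complement genes had a median of -1.21 and the lysosomal enzymes one of -0.40.

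These intervals are wide, and the count of 0 depended on the fit. With the robust regression that the methods name, C1qb, C1qc, Ms4a7, Adgre1, Mrc1 and Apoe fell after IR in tumor T cells. With array weights C1qa, Mrc1, Fcgr1, Aif1, Dab2, Apoe and Pf4 fell, and with only the tumor arrays in the fit C1qa, Aif1 and Apoe fell.

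In LN T cells 0 of 37 members passed after IR, where 1.05% of all genes did (limma, 2 members with an unadjusted p under 0.05, as had 14.3% of all genes), and the median was -0.01 beside 0.01 over all genes, with 19 values below 0 (49.1% of all genes). Lgals3 had the lowest adjusted p (0.263), with -1.55 ± 0.53, and Pltp had -0.80 ± 0.30 (adjusted p = 0.296). Without replicate 1 of the irradiated LN arrays both passed, Lgals3 at -2.46 and Pltp at -1.10, and the robust fit called Lgals3 alone.

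The difference between the IR effect in tumor and that in LN was tested as an interaction in limma. It passed for 0 of 37 members and for 0% of all genes (lowest adjusted p of a member 0.768, and 7 members with an unadjusted p under 0.05, beside 5.63% of all genes), and was below 0 for 32 members, beside 34.2% of all genes. Without replicate 1 of the irradiated LN arrays 2 members passed, Lgals3 at 2.06 and Ms4a6c at -1.03.

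**Figure D3:**
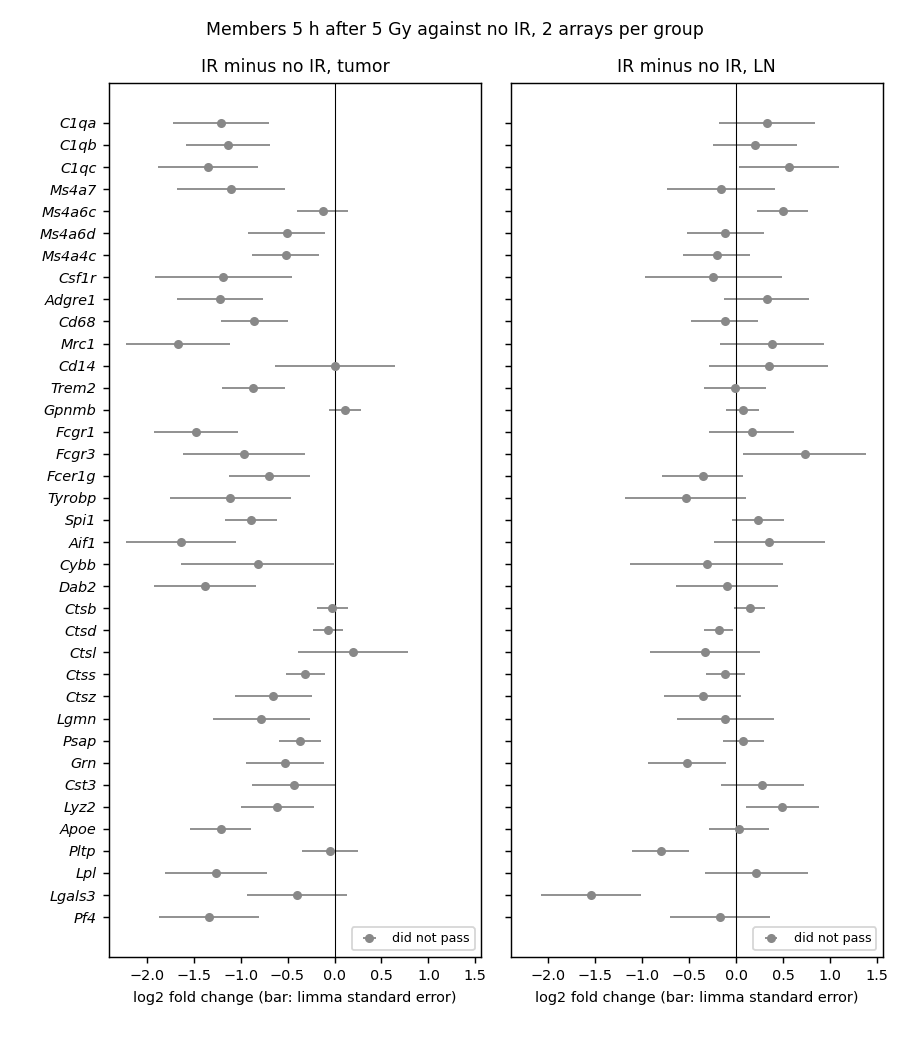
Log2 fold change of IR over no IR for each member in tumor (left) and LN (right) T cells. Points are limma estimates from 2 arrays per group and bars their standard errors; none passed, and 34 of 37 points lie below 0 in tumor against 19 of 37 in LN.

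Over the 4 tumor arrays, IR and no IR together, a member spanned 1.69 at the median, beside 0.42 over all genes, with 2.02 for the complement genes and 0.71 for the lysosomal enzymes. Replicate 1 of the irradiated tumor T cells was the lowest tumor array for 33 of 37 members (21.1% of all genes), the exceptions being Ms4a6c, Gpnmb, Ctsd and Ctsl. Replicate 2 of the tumor T cells without IR was the highest for 32 (25.5% of all genes). From low to high, 20 members had the order IR replicate 1, IR replicate 2, no IR replicate 1 and no IR replicate 2, as 9.22% of all genes had. Another 10 had no IR replicate 1 below IR replicate 2 (3.62% of all genes).

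Replicates were also compared within each group. Replicate 2 was higher than replicate 1 for 35 of 37 members in irradiated tumor T cells (median 0.94), for 37 in tumor T cells without IR (median 0.52), for 18 in irradiated LN T cells (median -0.04) and for 31 in LN T cells without IR (median 0.60). Over all genes replicate 2 was the higher one for 43.1%, 43.7%, 43.8% and 46.6% in the same order. Members of 1 array share its RNA, so these counts describe arrays and are no replicates of a condition.

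**Figure D4:**
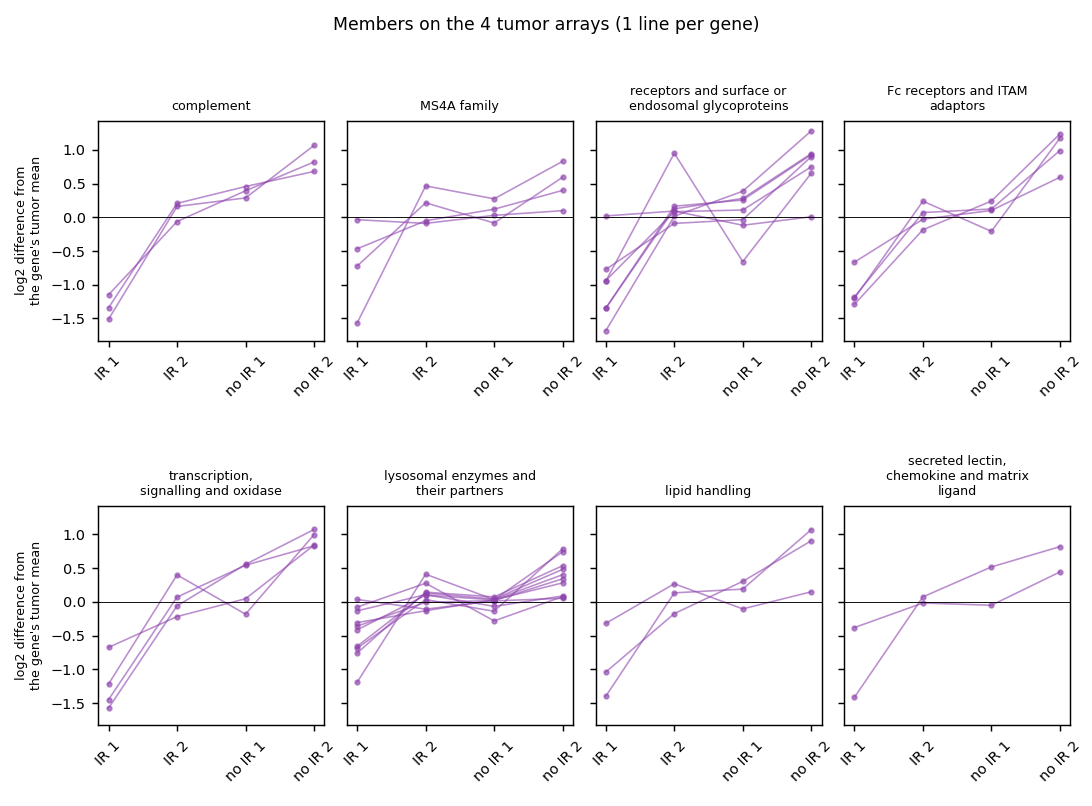
Log2 difference of each member from its own mean over the 4 tumor arrays (y axis), by role, on the irradiated and then the unirradiated arrays (x axis, group and replicate number). Each line joins the values of 1 gene; replicate 1 after IR is the lowest for 33 of 37 members, and the lines of most lysosomal enzymes are flatter.

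Most other genes of macrophages, from a list of 36, moved with the members. That list was chosen with earlier results of these data known, so it is no independent support. Of 32 measured, 22 rose in tumor T cells without IR and 0 fell (4.5% and 1.04% of all genes). With IR 18 rose and 1 fell (4.8% and 2% of all genes). Values were below 0 for 3 genes in each comparison. The largest differences without IR were those of Arg1, the arginine-cleaving enzyme of many tumor macrophages (5.50), the elastase Mmp12 (5.07), the scavenger receptor Msr1 (5.00), the beta-glucan receptor Clec7a (4.77) and Gatm, an enzyme of creatine synthesis (4.56). Mertk, a receptor for dying cells, rose by 3.06, and Itgam (CD11b, integrin αM), an integrin chain of myeloid cells, by 3.45. For αM the paper also reports up-regulation of the protein in tumor T cells, by flow cytometry. Cd163, the hemoglobin scavenger receptor, was 4.98 and 7.04 on the tumor arrays with IR and 5.14 and 7.13 on those without, against 4.20 and 5.61 on the LN arrays with IR and 4.38 and 4.91 on those without. Its tumor replicates were further apart than the group difference (1.49, limma adjusted p = 0.446). IR in tumor T cells gave a median of -0.80 for this list, with 0 of 32 passing (8 had an unadjusted p under 0.05).

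Other lysosomal genes moved less than the members. For 33 measured from a list of 38, the median without IR was 0.33, beside -0.09 over all genes. Of these, 14 had an unadjusted limma p under 0.05, as had 17.7% of all genes. In tumor T cells without IR 0 fell (1.04% of all genes) and 5 rose (4.5% of all genes). They were Asah1, acid ceramidase (1.55), Ctsc, cathepsin C (1.42), Lamp2, a lysosomal membrane protein (1.14), Smpd1, acid sphingomyelinase (1.09), and Hexa, a hexosaminidase chain (1.05). Lamp1, the other abundant membrane protein of lysosomes, had 0.81 (limma adjusted p = 0.0834) and missed the fold limit. With IR 5 rose as well, where 4.8% of all genes did.

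Markers of other cells were read on the same arrays. Over all genes, 4.5% rose and 1.04% fell without IR, and 4.8% rose and 2% fell with IR. A count of 0 or 1 in such short lists is therefore not read as a result. Of 12 fibroblast genes 6 rose in tumor T cells without IR (Col3a1, a collagen chain, by 5.41) and 7 with IR, and their mean was 8.59 and 8.60 on the tumor arrays with IR and 8.21 and 8.02 on those without, against 5.80 to 6.02 on the LN arrays. Over the tumor arrays their mean did not run in the order of the members' mean, which was 9.44 and 10.41 with IR and 10.40 and 10.98 without. Of 6 monocyte genes 2 rose without IR (F13a1, a coagulation factor chain, by 5.22), and 3 of the 6 values were below 0. Of 11 epithelial genes 1 rose (Cdh1, 2.97), while 9 of the 11 values were below 0 and the median was -0.24. Of 5 NK cell genes 1 rose and 1 fell. Of 11 B cell genes 3 fell, and of 11 listed as dendritic cell genes 1 fell (Ccr7, which is not particular to those cells). Of 11 neutrophil and 10 endothelial genes 0 passed (limma, 2 and 1 with an unadjusted p under 0.05, beside 17.7% of all genes). The mean of the T cell identity genes lay between 10.58 and 10.90 on the tumor arrays and between 10.59 and 11.19 on the LN arrays. What part cells other than T cells had in the members' values was not tested.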

How the data were processed

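Affymetrix Mouse 430 2.0 arrays of 8 pooled samples (4 groups, 2 arrays each) were analysed. The deposited values are log2 intensities that the authors normalized with RMA (background correction, quantile normalization and summary per probe set; version not given in the sources used here). Quantile normalization sets all arrays to 1 distribution, so values are relative. Arrays have no read depth, and their number limits the precision. GEO's platform annotation gave 1 gene symbol for 34945 of 45101 probe sets, several for 932 and none for 9160, with 64 controls; none with several was used to name a gene. The brightest such probe set on average stood for its gene. Members had 66 probe sets (18 members with several, up to 5).

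With limma 3.58.1 in R 4.3.3, least squares were fitted to 35877 probe sets in a model of 4 groups with 5 contrasts and empirical Bayes moderation. The p-values were adjusted over all of them (Benjamini-Hochberg). On simulated arrays, drawn independently, 20% of log2 changes of 1 were called in tumor against LN without IR, and 86% of changes of 2. Changes near the fold limit are thus mostly missed. Nothing says that 2 arrays share an experiment by number, so p measures the spread between these arrays. Alternatives were a robust fit, array weights, a variance trend, a replicate block, fewer arrays, other thresholds, probe sets and scalings, and leaving out each array. SAM, which the methods also name, was not run. Named were all members, in 2 further lists up to 5 changed genes with the largest difference plus preset defining genes, and the brightest markers of other cells. Members and lists were chosen with earlier results of these data known.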

Additional observations from a re-analysis of the deposited data

Results flagged for a closer look

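C1qc, Adgre1, Mrc1 and Spi1 had IR differences of opposite sign in the 2 tissues with no overlap: both irradiated arrays lay below both unirradiated arrays in tumor T cells and above them in LN T cells. The IR effect in tumor minus that in LN was -1.92 ± 0.75 (limma SE) for C1qc, -1.55 ± 0.65 for Adgre1, -2.05 ± 0.78 for Mrc1 and -1.12 ± 0.39 for Spi1. With limma the interaction did not pass for any of them (adjusted p = 0.782 for C1qc, Adgre1 and Mrc1, and 0.768 for Spi1, unadjusted p between 0.0239 and 0.0471). Opposite IR differences without overlap, in this or the mirrored direction, were seen for 815 of 18193 genes (4.48%). The share in this direction alone was not determined. On the LN arrays Mrc1 was at 5.60 and 5.62 with IR, against 4.90 and 5.56 without, and Spi1 at 7.29 and 7.20 with IR, against 6.95 and 7.08 without. The LN values of Mrc1 and Adgre1 lay near the lower quartile of the arrays (5.38 to 5.59), so their LN differences are of dim signals.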

How the results depend on the processing

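For tumor against LN without IR, 22 to 30 members passed under the alternatives that keep all arrays (30 with arrays scaled to T cell identity genes), and 13 to 26 when an array was left out. With IR the counts were 19 to 28 and 11 to 26. With only the arrays compared in the fit, 25 passed without IR and 18 with IR. The 13 and 11 came without replicate 2 of the tumor T cells without IR and with IR. After IR in tumor T cells 0 passed under the other fits and with any array left out, but 6 with the robust fit, 7 with array weights and 3 with only the tumor arrays, all lower. After IR in LN T cells 1 passed with the robust fit, and leaving out an array gave 0 to 2; for the interaction this gave 0 to 2. The share of all genes that passed under these alternatives was not determined. The cause was not tested. Scaling to T cell identity genes moved the median of all genes by 0.24, 0.10, 0.21, 0.35 and -0.14 in the 5 comparisons. The count of 33 members lowest on replicate 1 of irradiated tumor T cells was 34, 34 and 32 under 3 alternatives chosen after seeing the data.

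Replicate numbers were not shown to pair arrays: the differences between replicates correlated at 0.43 within each tissue and between -0.14 and 0.07 across tissues. With the replicate block 27, 28, 0, 0 and 0 members passed.

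Over all members, comparisons and settings the sign changed in 110 values of 30 members: 1 and 4 for tumor against LN without and with IR, 16 for IR in tumor, 56 for IR in LN and 33 for the interaction. Ms4a6c turned to 2.10 without IR and 0.87 with IR under its other probe set. Leaving out an array, tumor against LN with IR ranged from -0.097 to 0.36 for Spi1, from -0.0088 to 0.34 for Psap (both turned without replicate 2 of irradiated tumor T cells) and from -0.22 to 0.94 for Cst3 (without replicate 2 of irradiated LN T cells). For IR in tumor, loess gave -0.066 for Gpnmb, 0.020 for Ctsb, 0.0059 for Ctsd and 0.067 for Pltp, and T cell scaling gave 0.085 for Ms4a6c, 0.19 for Ctsb, 0.14 for Ctsd and 0.16 for Pltp. Leaving out an array, it ranged from -0.14 to 0.096 for Ctsb, -0.14 to 0.0021 for Ctsd, -1.58 to 0.022 for Lgmn, -0.34 to 0.25 for Pltp and -0.94 to 0.95 for Cd14. None of these was called but Ms4a6c at 2.10.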
